A study of Mus musculus with 20 samples.

Results

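Testes of leukaemic mice given vincristine whose blood was classed as highly infiltrated by leukaemia cells were compared with testes of leukaemic mice given no drug. The comparison takes 8 of the 20 testis RNA libraries of the study, 4 called High-VCR and 4 called ALL, placed by their sample labels alone. All animals were male NSG mice (NOD scid gamma), a strain without mature lymphocytes that accepts human cells, aged 6 weeks at the start. ALL mice received 400000 human cells of B-ALL, an acute leukaemia of B-cell precursors, taken from a patient-derived xenograft, by tail vein, and control groups were given saline. High-VCR mice received the same cells and, from day 69, vincristine sulfate into the peritoneum at 0.5 mg/kg once a week for 3 weeks. The engrafted mice given the drug were grouped by infiltration of the blood, per the series' design text, and how it was measured and where the groups were divided are not given in the sources used here. Thus the High-VCR and Low-VCR groups (the same treatment with low infiltration) were sorted by it and not assigned to it. The remaining groups were NC, controls with no xenograft, and VCR, whose labels name the drug and no xenograft. The labels do not say that each sample came from its own mouse, and the spread behind each p-value is that among these samples, which may be technical.

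Vincristine binds tubulin, the subunit of microtubules, and stops cells in mitosis. In the testis, spermatogonia divide by mitosis, spermatocytes pass through meiosis, round spermatids form the acrosome and start the tail, and elongating spermatids pack their DNA with protamines. Sertoli cells hold these germ cells inside the tubule and seal the blood-testis barrier, while Leydig cells between the tubules make testosterone. Each stage has genes that few other cells use, so bulk RNA reads the balance of stages together with the activity of each cell. In bulk tissue, fewer cells of a type and less RNA per cell cannot be told apart.

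The 4 ALL libraries held 10.3 to 11.8 M (mega) counts and the 4 High-VCR libraries 13.1 to 16.4 M. Levels are given as CPM, counts scaled to the size of the library and by TMM, a method that sets libraries to a common scale through the bulk of their genes. Values of single libraries stand in the order of replicates 1 to 4. A gene was called at an adjusted p under 0.05 in edgeR's quasi-likelihood test, adjusted by Benjamini-Hochberg over all 16534 genes tested, and fold changes are log2 of High-VCR relative to ALL with the standard error. Every adjusted p below is from that fit unless another test is named. The ALL libraries were alike, with a biological coefficient of variation of 9.33%, and the High-VCR libraries were not, at 32.9%. High-VCR 2 stood apart from the other 3: its Sertoli, endothelial and mitochondrial levels were the lowest of the group and its meiotic levels the highest. Counts of called genes in a list are therefore also given without it wherever they moved by more than 1.5 times.

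The labelled tissue was checked against its markers. All 8 Sertoli markers checked (Sox9, Gata4, Wt1, Amh, Fshr, Inha, Shbg and Rhox5) and all 5 Leydig markers (Star, Cyp11a1, Cyp17a1, Hsd3b1 and Insl3) had counts in each of the 8 libraries. Markers of the epididymis, the duct that adjoins the testis, were near 0: Crisp1, Lcn5, Lcn8, Defb20 and Gpx5 had at most 6 counts in any library. B-cell markers were low. Pax5 had 180 counts summed over ALL and 37 over High-VCR, and Cd79a and Vpreb1 had at most 13 counts in any library. These are mouse gene symbols, and human leukaemia transcripts were not analysed here.

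Most of the measured transcriptome differed between the groups. Of the 16534 genes, 12054 were called (72.9%), 7015 higher in High-VCR (42.4%) and 5039 lower (30.5%), and 8490 of the called genes differed at least 2-fold. In 11565 genes (69.9%) the 4 values of one group did not overlap the 4 of the other. The median log2 fold change over all genes was 0.16. Without High-VCR 2, 12875 of 16630 genes were called (77.4%), 7094 higher (42.7%) and 5781 lower (34.8%). With so high a background, a list stands out here by its direction and its median and not by the share of its members called.

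**Figure D1:**
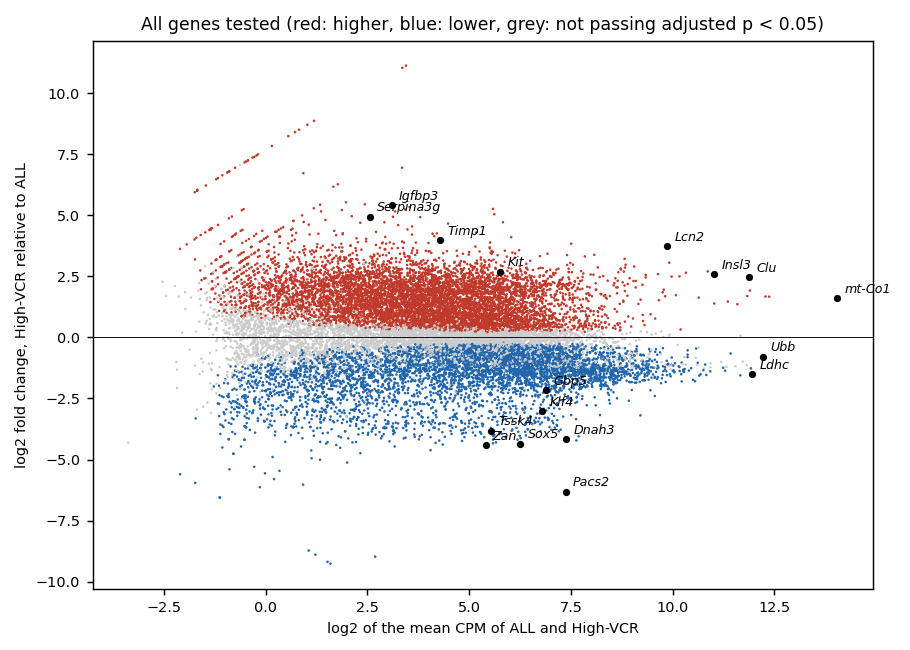
Each point is 1 of the 16534 genes tested, with the log2 of its mean CPM over both groups on the x axis and the log2 fold change of High-VCR relative to ALL on the y axis. Red points were higher and blue points lower at an adjusted p under 0.05, and the straight rows of points at the far left and far top are genes at or near 0 counts in 1 group, whose fitted fold change is no measurement of size. Ldhc, Pacs2 and Tssk4 lie among the falls, and Clu, Lcn2 and mt-Co1 among the rises.

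Tssk4 and Ccdc159 are the genes named in the title of the series. Tssk4 encodes a testis-specific serine kinase of late spermatids, and Ccdc159 a coiled-coil protein of sperm. Tssk4 was at 92, 87.3, 79.5 and 89.5 CPM in ALL and 6.65, 3.37, 10.6 and 4.02 CPM in High-VCR. The groups did not overlap, and the lowest ALL library was far above the highest High-VCR library (log2 fold change -3.82 ± 0.70, adjusted p = 0.000119). An exact two-sided permutation test of log2(CPM + 1) gave p = 0.0286 for Tssk4, the smallest that 4 against 4 allows, and 0.0571 after adjustment over both genes. Ccdc159 was at 48.7, 17.5, 26.8 and 30.2 CPM in ALL and 8.48, 5.25, 24.8 and 8.71 CPM in High-VCR. Its groups overlapped, with High-VCR 3 inside the range of ALL, and the difference did not pass (log2 fold change -1.38 ± 0.80, adjusted p = 0.126; exact permutation p = 0.0571, adjusted 0.0571). Without High-VCR 3 the edgeR log2 fold change of Ccdc159 was -2.04, with an adjusted p of 0.0491. Leaving out any other single library gave no call. Over all these fits its adjusted p was 0.0491 to 0.274 and its log2 fold change -2.04 to -1.07. Ccdc159 also passed in a fit on the 8 libraries alone (adjusted p = 0.00986), and with the replicate number as a block there (adjusted p = 0.00547). A fit on the 12 libraries of ALL, Low-VCR and High-VCR called it (adjusted p = 0.014), as did limma voom (adjusted p = 0.0112). So did scaling the libraries on Sertoli genes (adjusted p = 0.00341). Within library numbers up to 33, 2 against 2, it passed (adjusted p = 0.0367), and within higher numbers it did not. Nor did it pass with DESeq2 size factors or library size alone.

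The other testis-specific serine kinases moved with Tssk4. Of 7 tested members of this family and its partners, 6 were lower and 0 higher, with a median log2 fold change of -1.61. Tssk5 fell furthest, from 38.9 ± 1.12 CPM in ALL and 1.87 ± 1.09 CPM in High-VCR (SD, n = 4; log2 fold change -4.39 ± 0.76, adjusted p = 6.44e-05). Tssk1 was at 554, 499.8, 493 and 474 CPM in ALL and 115, 114, 179 and 116.3 CPM in High-VCR, with High-VCR 3 the highest of its group (log2 fold change -1.95 ± 0.53, adjusted p = 0.00324). Tsks, the substrate that these kinases phosphorylate, was at 845 ± 31.4 CPM in ALL and 277 ± 78.8 CPM in High-VCR (SD, n = 4; log2 fold change -1.61 ± 0.55, adjusted p = 0.0153).

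**Figure D2:**
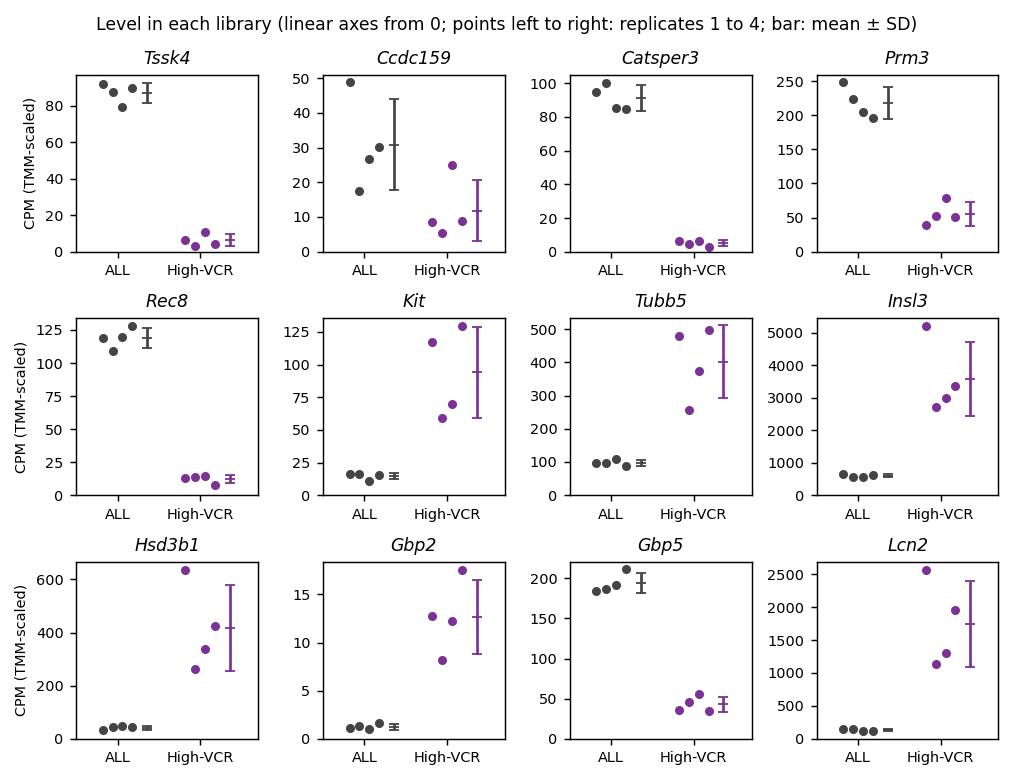
TMM-scaled CPM of 12 genes in each ALL and High-VCR library, on linear axes that start at 0, with points for replicates 1 to 4 from left to right and a bar for the mean ± SD (n = 4). Tssk4, Catsper3, Prm3, Rec8 and Gbp5 are lower in every High-VCR library, Kit, Tubb5, Insl3, Hsd3b1, Gbp2 and Lcn2 are higher in every one, and the groups of Ccdc159 overlap.

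The round spermatid list had the lowest median of the 48 lists. Of 28 tested, 26 were lower and 0 higher, with a median of -2.90. Catsper3, a subunit of the sperm calcium channel, was at 94.9, 100.3, 85.3 and 84.8 CPM in ALL and 6.38, 4.35, 6.51 and 2.85 CPM in High-VCR, far below ALL in all 4 libraries (log2 fold change -4.19 ± 0.59, adjusted p = 8.44e-06). Catsper1, the pore subunit of the same channel, was at 246, 217, 204 and 234 CPM in ALL and 20.8, 18.5, 30.9 and 15.8 CPM in High-VCR (log2 fold change -3.39 ± 0.45, adjusted p = 4.39e-06). Tmem95, a sperm membrane protein needed for fusion with the egg, was at 12.2, 10.2, 12.2 and 11 CPM in ALL and 0.882, 0.779, 0.92 and 0.558 CPM in High-VCR (log2 fold change -3.85 ± 0.46, adjusted p = 1.23e-06). Lyzl4, a lysozyme-like protein of sperm, fell by a similar amount (log2 fold change -3.27 ± 0.44, adjusted p = 5.46e-06). Tnp2, the transition protein that replaces histones before protamines and the most abundant member, was at 5587, 4591, 5104 and 4583 CPM in ALL and 1779, 2218, 3038 and 1945 CPM in High-VCR. Its groups did not overlap either, but the difference was much smaller and did not pass (log2 fold change -1.15 ± 0.60, adjusted p = 0.0924). Tnp2 passed in the fit on the 8 libraries alone (adjusted p = 0.000292). All 28 tested members, called or not, had their 4 High-VCR values below their 4 ALL values. Of all genes tested, 69.9% had groups that did not overlap, in either direction. The same full separation downward held for all 31 elongating spermatid, 12 late spermatid chromatin and 7 kinase genes tested.

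Izumo1, the sperm protein that binds its receptor on the egg, was at 142, 148, 132 and 132 CPM in ALL and 10.3, 7.53, 15.1 and 5.14 CPM in High-VCR (log2 fold change -3.86 ± 0.59, adjusted p = 2e-05). Its promoter is shown because it was the only one of 24 round spermatid genes with a promoter window in RefSeq that held the cAMP response element, TGACGTCA, the palindrome bound by the spermatid factor CREM. The 250 bases before its start (RefSeq, GRCm38.p6, chr7:45621561-45621810, plus strand) hold the element, in capitals, at positions -96 to -89 from the start.
Izumo1: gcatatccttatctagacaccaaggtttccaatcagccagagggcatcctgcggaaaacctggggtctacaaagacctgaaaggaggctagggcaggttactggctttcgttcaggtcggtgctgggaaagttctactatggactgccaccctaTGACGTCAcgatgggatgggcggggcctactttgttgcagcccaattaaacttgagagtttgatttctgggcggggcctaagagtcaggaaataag
The share of round spermatid genes with this exact element was 4.17%, beside 3.13% of the 12787 tested genes with a window of 250 bases before and 50 after a start. Elongating spermatid genes held it in 1 of 28 (3.57%), and the protamine and kinase lists in 0 of 11 and 0 of 6. These shares say only that the letters are or are not in these windows.

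The lists of later spermatid genes had medians nearer to 0 than the round spermatid list, with and without High-VCR 2. Among protamines and other late spermatid chromatin genes, 9 of 12 were lower and 0 higher (median -1.37). Prm3, a protamine-related protein, was at 249, 224, 205 and 196 CPM in ALL and 38.5, 53, 79.1 and 50.2 CPM in High-VCR (log2 fold change -1.99 ± 0.50, adjusted p = 0.002). Chd5, a remodeller of spermatid chromatin, was at 1185, 1148, 1086 and 1167 CPM in ALL and 218, 203, 375 and 225 CPM in High-VCR, and H1f9, a spermatid linker histone, at 529.6 ± 49 CPM in ALL and 172 ± 47.7 CPM in High-VCR (SD, n = 4). Both fell (Chd5 log2 fold change -2.17 ± 0.54, adjusted p = 0.00182; H1f9 log2 fold change -1.62 ± 0.50, adjusted p = 0.00819). The protamine genes Prm1 and Prm2 had 94888 and 158615 counts over ALL and 64175 and 114821 over High-VCR. Neither passed (Prm1 log2 fold change -1.28 ± 0.61, adjusted p = 0.0687, and Prm2 log2 fold change -1.18 ± 0.58, adjusted p = 0.0764). Among elongating and condensing spermatid genes, 19 of 31 were lower and 0 higher (median -1.39). Tekt2, a filament protein of the tail, was at 253, 247, 242 and 239.8 CPM in ALL and 21.2, 38.5, 31.7 and 14.1 CPM in High-VCR (log2 fold change -3.22 ± 0.56, adjusted p = 6.73e-05). Odf3, an outer dense fibre protein, fell by less (log2 fold change -2.46 ± 0.46, adjusted p = 0.000156), as did Spag4, which anchors the tail to the nucleus (log2 fold change -1.79 ± 0.33, adjusted p = 0.000125). Akap4, the main scaffold of the fibrous sheath and the most abundant member, was at 3710, 3461, 3590 and 3523 CPM in ALL and 1169, 1773, 2118 and 1143 CPM in High-VCR and did not pass (log2 fold change -1.20 ± 0.57, adjusted p = 0.064), although the groups were apart and the fit on the 8 libraries alone called it (adjusted p = 0.000428).

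The sperm tail lists held genes with very different losses. Of 31 axonemal dyneins and flagellum assembly genes, 18 were lower and 0 higher (median -1.42). Without High-VCR 2 this became 27 lower, beside 34.8% of all genes. Dnah3, a dynein heavy chain of the axoneme, was at 282, 325, 288 and 369 CPM in ALL and 15.3, 18.7, 28 and 8.6 CPM in High-VCR (log2 fold change -4.16 ± 0.70, adjusted p = 5.14e-05). Cfap58, a tail assembly protein, was at 249, 277, 256 and 268 CPM in ALL and 17.4, 31.4, 29.5 and 9.21 CPM in High-VCR (log2 fold change -3.58 ± 0.65, adjusted p = 0.000111). In these genes all 4 High-VCR libraries were low. Rsph1, a radial spoke protein, behaved otherwise: it was at 4592, 4407, 4659 and 4294 CPM in ALL and 876, 4930, 1692 and 1511 CPM in High-VCR, with High-VCR 2 above every ALL library, and did not pass (log2 fold change -0.99 ± 0.54, adjusted p = 0.107). Without High-VCR 2 its log2 fold change was -1.72, with an adjusted p of 0.00745. Dnah10 was at 279, 286, 328 and 354 CPM in ALL and 34.3, 198, 80 and 17.6 CPM in High-VCR and passed (log2 fold change -1.92 ± 0.67, adjusted p = 0.0163), with adjusted p from 0.00132 to 0.0519 when 1 library was left out; it was not called without High-VCR 1. Of 21 Ccdc genes of the tail and centrosome, 15 were lower and 0 higher (median -1.52, or -2.20 with 20 lower without High-VCR 2). Ccdc182 was at 46.4, 42.1, 34.6 and 36.5 CPM in ALL and 1.97, 1.3, 5.19 and 1.06 CPM in High-VCR (log2 fold change -4.07 ± 0.64, adjusted p = 2.51e-05) and Ccdc116 at 238, 248, 223 and 231 CPM in ALL and 21, 29.5, 38.1 and 18.7 CPM in High-VCR (log2 fold change -3.13 ± 0.57, adjusted p = 0.000117). Ccdc136, an acrosome protein and the most abundant of them, was at 3332, 3449, 3473 and 3364 CPM in ALL and 779, 2256, 1622 and 1091 CPM in High-VCR (log2 fold change -1.24 ± 0.52, adjusted p = 0.0403). Its adjusted p lay between 0.0214 to 0.113 without 1 library, and it was called only when the library left out was High-VCR 2.

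In meiotic genes the High-VCR libraries parted. Of 31 leptotene and zygotene genes, 15 were lower and 0 higher (median -1.13), and without High-VCR 2 it was 23 lower (median -1.40). Rec8, the meiotic cohesin, fell most, from 119, 109.2, 119.7 and 128 CPM in ALL and 12.9, 13.8, 14.3 and 7.82 CPM in High-VCR (log2 fold change -3.29 ± 0.50, adjusted p = 1.92e-05). Syce3 and Syce2, parts of the central element of the synaptonemal complex that joins paired chromosomes, also fell (Syce3 log2 fold change -2.10 ± 0.39, adjusted p = 0.000134; Syce2 log2 fold change -1.53 ± 0.29, adjusted p = 0.000177). Sycp2, of the lateral element, was at 518, 504, 512 and 461 CPM in ALL and 146, 616, 229 and 228 CPM in High-VCR, with High-VCR 2 above every ALL library, and did not pass (log2 fold change -0.71 ± 0.56, adjusted p = 0.261). Without High-VCR 2 its log2 fold change was -1.31, with an adjusted p of 0.0475. Of 25 pachytene and diplotene genes, 15 were lower and 0 higher (median -1.16), and without High-VCR 2 it was 20 lower (median -1.71), a lower median than the late spermatid chromatin (-1.45) and elongating spermatid (-1.53) lists had without that library. Calr3, a testis calreticulin, was at 253, 232, 206 and 203 CPM in ALL and 53.2, 44.8, 93.2 and 58.8 CPM in High-VCR (log2 fold change -1.84 ± 0.39, adjusted p = 0.000474), and Cdc25c, a phosphatase that drives entry into division, at 33.3, 34, 29.3 and 27.8 CPM in ALL and 8.21, 10.2, 13.5 and 9.15 CPM in High-VCR (log2 fold change -1.60 ± 0.30, adjusted p = 0.000156). Eif4g3, a translation factor needed for the exit from meiotic prophase, was at 399 ± 54.1 CPM in ALL and 180 ± 27.1 CPM in High-VCR (SD, n = 4; log2 fold change -1.15 ± 0.20, adjusted p = 7.87e-05). Ldhc, the lactate dehydrogenase of germ cells and among the most abundant transcripts in ALL, was at 6017, 6155, 5897 and 5472 CPM in ALL and 1045, 3811, 1968 and 1502 CPM in High-VCR (log2 fold change -1.50 ± 0.58, adjusted p = 0.0285). It was not called when High-VCR 1, 3 or 4 was left out (adjusted p from 0.00952 to 0.0841 without 1 library).

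**Figure D3:**
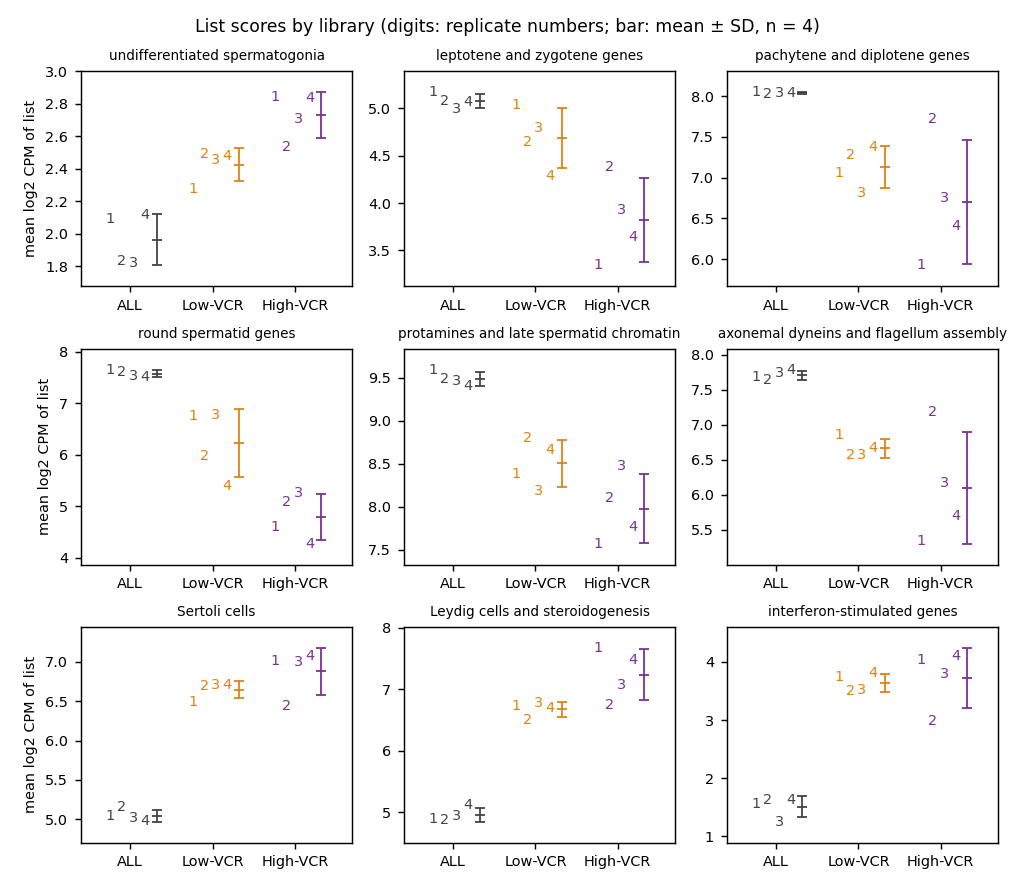
Mean log2 CPM over the tested genes of 9 lists in each ALL, Low-VCR and High-VCR library, drawn as the replicate number, with the mean ± SD of each group (n = 4) to the right. High-VCR 2 is nearest to ALL in the pachytene, leptotene and flagellum lists and in the Sertoli and interferon lists, but not in the round spermatid list, where all 4 High-VCR libraries lie below every Low-VCR library.

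The list scores put numbers on this. The round spermatid score, the mean log2 CPM of the list in a library, was 7.51 to 7.65 in ALL and 4.28 to 5.25 in High-VCR. The pachytene score was 8.03 to 8.06 in ALL and 5.92 to 7.73 in High-VCR, a range wider than the difference between the group means (8.04 and 6.70). The flagellum score was 7.64 to 7.78 in ALL and 5.35 to 7.18 in High-VCR. High-VCR 2 held the highest pachytene and flagellum scores of its group and High-VCR 1 the lowest.

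Genes of the piRNA pathway, which silences transposons in germ cells, were lower in 6 of 20 and higher in 1 (median -0.77). That share lower was close to the 30.5% of all genes. Without High-VCR 2 it was 14 lower (median -1.33), beside 34.8% of all genes. Gtsf1, a partner of the PIWI proteins, was at 413, 396, 388 and 343 CPM in ALL and 67.4, 152, 128 and 75.4 CPM in High-VCR (log2 fold change -1.86 ± 0.51, adjusted p = 0.0034). Mael was at 1752 ± 62.8 CPM in ALL and 698 ± 347 CPM in High-VCR (SD, n = 4; log2 fold change -1.33 ± 0.50, adjusted p = 0.0247), but was not called without High-VCR 1 or 4. Piwil4, the PIWI protein of early germ cells, was the member that rose. It was at 0, 1.92, 1.76 and 2.54 CPM in ALL and 3.87, 2.21, 5.06 and 3.24 CPM in High-VCR, the groups overlapped, and the call (log2 fold change 1.20 ± 0.50, adjusted p = 0.0383) was lost without ALL 3 or High-VCR 1, 3 or 4; without ALL 1, the library at 0, the log2 fold change was 0.79. Of 28 mitotic spindle and checkpoint genes, 13 were lower and 1 higher (median -0.93), with 19 lower and 0 higher without High-VCR 2. Ccnb1, the cyclin of entry into M phase, was at 127, 143, 146 and 131 CPM in ALL and 34.6, 67, 51.9 and 35.1 CPM in High-VCR (log2 fold change -1.53 ± 0.28, adjusted p = 9.61e-05). Plk1, a kinase of spindle assembly, fell (log2 fold change -1.53 ± 0.37, adjusted p = 0.00141), and so did Cenpe, the kinetochore motor (log2 fold change -1.04 ± 0.27, adjusted p = 0.0022). In both, High-VCR 2 was the library nearest to ALL, at 98.9 CPM for Plk1 and 155 CPM for Cenpe.

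Spermatogonial genes moved the other way or in both directions. Of 18 genes of undifferentiated spermatogonia, 11 were higher and 0 lower (median 1.04). Tspan8, a surface protein of the stem cell fraction, was at 0.87, 0.81, 0.684 and 0.993 CPM in ALL and 9.63, 4.8, 6.7 and 9.66 CPM in High-VCR (log2 fold change 3.19 ± 0.38, adjusted p = 1.15e-06). Etv5, a factor for stem cell upkeep that Sertoli cells also use, was at 19.7, 17.1, 17.4 and 20.6 CPM in ALL and 46.4, 36.9, 55.9 and 49.2 CPM in High-VCR (log2 fold change 1.33 ± 0.14, adjusted p = 3.52e-07). Uchl1 (log2 fold change 1.45 ± 0.19, adjusted p = 3.34e-06) and Foxo1 (log2 fold change 1.39 ± 0.18, adjusted p = 2.24e-06) rose as well. Etv5, Uchl1, Foxo1 and the list median were below 0 when libraries were scaled on Sertoli genes (-0.52, -0.42, -0.47 and -0.81). Gfra1, the receptor for GDNF on stem cells, had 22 counts over ALL and 35 over High-VCR and did not pass (adjusted p = 0.948). Of 14 genes of differentiating spermatogonia, 4 were higher and 5 lower (median -0.19). Kit, the receptor of differentiating spermatogonia that Leydig cells also carry, was at 15.9, 16, 11 and 15.2 CPM in ALL and 118, 59, 70 and 129.7 CPM in High-VCR (log2 fold change 2.69 ± 0.25, adjusted p = 9.17e-08). Ccnd2 rose (log2 fold change 2.00 ± 0.29, adjusted p = 1.04e-05), and so did Dmrt1, a factor of both Sertoli cells and spermatogonia (log2 fold change 1.22 ± 0.10, adjusted p = 6.26e-08), which was at -0.61 with Sertoli scaling. Ddx4, the germ cell helicase that stays on into spermatocytes, was at 699, 764, 711 and 719 CPM in ALL and 176, 605, 286 and 234 CPM in High-VCR (log2 fold change -1.15 ± 0.48, adjusted p = 0.0384). It was called without 1 library only when that library was High-VCR 2 (adjusted p from 0.00629 to 0.111).

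Somatic cell genes rose, in nearly every member. Of 26 Sertoli genes, 24 were higher and 0 lower (median 1.89). Shbg, the androgen-binding protein that Sertoli cells secrete, was at 13.2, 11.3, 9.57 and 9.05 CPM in ALL and 80.7, 41.2, 72.4 and 84.7 CPM in High-VCR (log2 fold change 2.69 ± 0.22, adjusted p = 5.48e-08). Clu, clusterin, was at 1194, 1141, 1153 and 1094 CPM in ALL and 7230, 4371, 6172 and 7570 CPM in High-VCR, among the largest gains in CPM of all genes (log2 fold change 2.47 ± 0.23, adjusted p = 1.13e-07). Aldh1a1, which makes retinoic acid, was at 179, 202, 188 and 181 CPM in ALL and 1463, 651, 945 and 1373 CPM in High-VCR (log2 fold change 2.56 ± 0.26, adjusted p = 1.85e-07), and Gstm6 rose as well (log2 fold change 2.64 ± 0.22, adjusted p = 5.48e-08). In each of these 4 genes the lowest High-VCR library was High-VCR 2, and it was still well above ALL.

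All 19 genes of Leydig cells and steroidogenesis were higher (median 2.40). Insl3, the peptide hormone of Leydig cells, was at 652, 562, 546 and 625 CPM in ALL and 5214, 2710, 2994 and 3360 CPM in High-VCR (log2 fold change 2.58 ± 0.33, adjusted p = 2.5e-06). Hsd3b1, the dehydrogenase on the path to testosterone, was at 31.7, 43.2, 49.1 and 43.5 CPM in ALL and 637, 264, 339.9 and 426 CPM in High-VCR (log2 fold change 3.31 ± 0.30, adjusted p = 7.82e-08). Hsd17b3, which makes testosterone itself, was at 7.62, 11.2, 7.91 and 10.3 CPM in ALL and 160.4, 54, 94.6 and 124 CPM in High-VCR (log2 fold change 3.55 ± 0.30, adjusted p = 6.66e-08). Sult1e1, the oestrogen sulfotransferase, had the steepest rise of the list and a wide spread, at 14.5, 30.3, 27.3 and 23.2 CPM in ALL and 529.5, 111, 306 and 412 CPM in High-VCR (log2 fold change 3.83 ± 0.43, adjusted p = 6.89e-07). Nr5a1, the factor that switches steroid enzymes on, rose by less (log2 fold change 2.40 ± 0.21, adjusted p = 7.38e-08). Even with scaling on Sertoli genes, which centres that list near 0, the Leydig median was above 0, at 0.54. Of 22 cholesterol synthesis genes, which feed steroid production, 17 were higher and 3 lower (median 1.06). Msmo1 (log2 fold change 3.07 ± 0.30, adjusted p = 1.44e-07), Dhcr7 (log2 fold change 2.39 ± 0.26, adjusted p = 4.27e-07) and Ebp (log2 fold change 2.16 ± 0.19, adjusted p = 7.38e-08) rose, while Fdft1, squalene synthase, was at 318, 308, 323 and 302 CPM in ALL and 97.6, 152, 108.9 and 98.6 CPM in High-VCR and fell (log2 fold change -1.45 ± 0.17, adjusted p = 1.1e-06). That list's median was below 0 with Sertoli scaling (-0.77).

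Vessels, tubule wall and matrix followed the somatic pattern. Of 15 peritubular and smooth muscle genes, 12 were higher and 2 lower (median 0.87, or -0.94 with Sertoli scaling). Acta2, the actin of smooth muscle, was at 80.1, 68.3, 88.3 and 63.6 CPM in ALL and 276, 184, 236 and 267 CPM in High-VCR (log2 fold change 1.68 ± 0.19, adjusted p = 6.04e-07), though at -0.17 with Sertoli scaling, and Myl9 rose (log2 fold change 1.93 ± 0.18, adjusted p = 1.14e-07). Pln, a regulator of the muscle calcium pump, fell at a low level from 1.44 ± 0.0651 CPM in ALL and 0.254 ± 0.0944 CPM in High-VCR (SD, n = 4; log2 fold change -2.46 ± 0.38, adjusted p = 1.89e-05). Of 18 endothelial genes, 14 were higher and 0 lower (median 1.75, or -0.11 with Sertoli scaling), with 1 lower without High-VCR 2. Kdr, the main receptor for VEGF, was at 5.44, 5.16, 5.37 and 5.85 CPM in ALL and 44.8, 26.3, 34.6 and 46.1 CPM in High-VCR (log2 fold change 2.80 ± 0.24, adjusted p = 6.26e-08). Robo4, a guidance receptor of endothelium, was at 2.61, 2.33, 2.34 and 0 CPM in ALL and 42.4, 20.6, 33.6 and 43.8 CPM in High-VCR (log2 fold change 4.25 ± 0.57, adjusted p = 4.48e-06). Of 26 extracellular matrix genes, 21 were higher and 3 lower (median 1.98), with 1 lower without High-VCR 2. Timp1, an inhibitor of matrix proteases, was at 1.96, 2.02, 3.52 and 1.77 CPM in ALL and 42.9, 24, 30 and 50.2 CPM in High-VCR (log2 fold change 3.98 ± 0.32, adjusted p = 5.48e-08). Sparc (log2 fold change 2.25 ± 0.20, adjusted p = 6.93e-08) and the protease Mmp14 (log2 fold change 2.23 ± 0.18, adjusted p = 5.48e-08) rose, while Postn, periostin, was at 4.03, 5.26, 8.4 and 7.17 CPM in ALL and 0, 2.14, 0.986 and 0 CPM in High-VCR (log2 fold change -2.99 ± 0.83, adjusted p = 0.00397).

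Barrier and niche genes rose too. Of 21 junction genes of the blood-testis barrier, 15 were higher and 2 lower (median 1.73, or -0.13 with Sertoli scaling). Jam2, a junctional adhesion molecule, was at 7.07, 5.67, 6.54 and 5.3 CPM in ALL and 76.6, 45.2, 70.8 and 88.6 CPM in High-VCR (log2 fold change 3.51 ± 0.31, adjusted p = 7.38e-08). Lsr, a protein of junctions where 3 cells meet, rose (log2 fold change 2.75 ± 0.22, adjusted p = 5.48e-08). Nectin3, which sits on the spermatid side of Sertoli contacts, was at 586, 579, 541 and 549.9 CPM in ALL and 108.6, 331, 210.3 and 132 CPM in High-VCR and fell (log2 fold change -1.53 ± 0.51, adjusted p = 0.0124). Of 19 niche growth factors and receptors, 18 were higher and 0 lower (median 2.20). Lif, a cytokine of the interleukin 6 family, had 0 counts in all 4 ALL libraries and 141 counts over the 4 High-VCR libraries, at least 28.5-fold higher against 3 counts over the group. Csf1, the growth factor of macrophages, was at 1.85, 1.72, 1.27 and 1.77 CPM in ALL and 17.9, 9.86, 13.5 and 16.4 CPM in High-VCR (log2 fold change 3.12 ± 0.25, adjusted p = 5.48e-08). Pdgfra (log2 fold change 2.41 ± 0.21, adjusted p = 7.37e-08) and Wnt6 (log2 fold change 2.20 ± 0.22, adjusted p = 1.76e-07) rose. Of 20 retinoic acid genes, 12 were higher and 4 lower (median 0.84, or -0.98 with Sertoli scaling). Rarb, a retinoic acid receptor, fell at a low level (log2 fold change -2.14 ± 0.24, adjusted p = 4.88e-07).

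The target of the drug split by isotype. Of 19 tubulin genes, 5 were higher and 9 lower (median -0.75). Tubb5, the widely used beta-tubulin, was at 97.6, 97.6, 108 and 87 CPM in ALL and 478, 257, 375 and 496 CPM in High-VCR (log2 fold change 2.04 ± 0.22, adjusted p = 4.51e-07). Tubb3 (log2 fold change 2.06 ± 0.23, adjusted p = 6.23e-07) and Tuba1a (log2 fold change 1.80 ± 0.21, adjusted p = 1.04e-06) rose, although Tuba1a was at -0.06 with Sertoli scaling, and Tubb2b rose at a low level, at 0.229 ± 0.255 CPM in ALL and 2.11 ± 0.916 CPM in High-VCR (SD, n = 4; log2 fold change 3.13 ± 0.65, adjusted p = 0.000356). With Sertoli scaling Tubb5, Tubb3 and Tubb2b were at 0.168, 0.176 and 1.285 and were no longer called (adjusted p = 0.293, 0.274 and 0.0671). Tuba3b, an alpha-tubulin of the testis and the most abundant member, was at 2723, 2743, 2815 and 2624 CPM in ALL and 464, 2549, 881 and 782 CPM in High-VCR and did not pass (log2 fold change -1.22 ± 0.59, adjusted p = 0.0692). Only High-VCR 2 kept it near the level of ALL, and without that library its log2 fold change was -1.94, with an adjusted p of 0.00693. Tubulin genes are near-identical copies in part, so their counts depend on how the authors' counting divided shared reads. Of 28 enzymes and regulators of microtubules, 3 were higher and 16 lower (median -1.08). Clip1, a protein of growing microtubule ends, was at 273, 240.4, 224 and 256 CPM in ALL and 35, 27.4, 57 and 33.5 CPM in High-VCR (log2 fold change -2.70 ± 0.44, adjusted p = 3.76e-05), and Vash2, which removes the last tyrosine of alpha-tubulin, fell (log2 fold change -1.93 ± 0.29, adjusted p = 1.35e-05). Hdac6, the tubulin deacetylase, was at 70.8, 71.3, 71.4 and 69.3 CPM in ALL and 351, 212, 323 and 364 CPM in High-VCR and rose (log2 fold change 2.14 ± 0.17, adjusted p = 5.48e-08), as did Mapre1, an end-binding protein (log2 fold change 1.13 ± 0.12, adjusted p = 2.49e-07), which was at -0.71 with Sertoli scaling.

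Of 12 genes of vincristine efflux and metabolism, 6 were higher and 3 lower (median 1.01, or -0.84 with Sertoli scaling). Abcb1a, the P-glycoprotein that pumps vincristine out of cells and sits in the vessels and the barrier, was at 7.29, 7.49, 8.11 and 9.27 CPM in ALL and 29.6, 19.7, 27.4 and 28.9 CPM in High-VCR (log2 fold change 1.71 ± 0.19, adjusted p = 4.86e-07). Abcc1, another vincristine pump, was at 86.4, 100.5, 92.8 and 99.3 CPM in ALL and 303, 209.5, 328 and 325 CPM in High-VCR (log2 fold change 1.62 ± 0.16, adjusted p = 1.43e-07). Both were below 0 with Sertoli scaling (-0.14 and -0.24). Abcg2, an efflux pump with other substrates, was at 28.6, 29.4, 26.6 and 27.3 CPM in ALL and 14.8, 10.6, 20 and 15 CPM in High-VCR and fell (log2 fold change -0.89 ± 0.16, adjusted p = 8.54e-05).

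Genes of damage and death rose on balance. Of 25 p53 targets, 17 were higher and 5 lower (median 1.51). Fas, a death receptor, was at 0.218, 0.506, 0.684 and 0 CPM in ALL and 8.27, 4.28, 6.18 and 9.66 CPM in High-VCR (log2 fold change 4.26 ± 0.63, adjusted p = 1.39e-05). Ccng1, a cyclin induced by p53, was at 5.77, 7.49, 6.05 and 7.5 CPM in ALL and 53.9, 26.5, 41.3 and 46.6 CPM in High-VCR (log2 fold change 2.65 ± 0.23, adjusted p = 6.93e-08). Sesn2 rose (log2 fold change 1.67 ± 0.16, adjusted p = 1.07e-07), though at -0.19 with Sertoli scaling. Mdm2, the ligase that degrades p53, was at 184, 195, 168 and 159 CPM in ALL and 101, 121, 98.5 and 104.6 CPM in High-VCR and fell (log2 fold change -0.73 ± 0.14, adjusted p = 0.00017). Of 25 genes of the apoptosis machinery, 20 were higher and 1 lower (median 1.46), with 2 lower without High-VCR 2. Birc3, an inhibitor of apoptosis and NF-kappaB target, was at 5.33, 5.47, 6.15 and 7.83 CPM in ALL and 53.8, 29.3, 44.3 and 49.4 CPM in High-VCR (log2 fold change 2.83 ± 0.18, adjusted p = 3.19e-08). Casp6 rose (log2 fold change 1.90 ± 0.15, adjusted p = 5.48e-08). Bcl2l1, which encodes Bcl-xL, was at 32.1, 32.3, 32.9 and 34.3 CPM in ALL and 16.5, 31.3, 16.6 and 18 CPM in High-VCR and fell (log2 fold change -0.67 ± 0.19, adjusted p = 0.00371), with High-VCR 2 close to ALL. With Sertoli scaling the p53 and apoptosis medians were -0.36 and -0.39.

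Stress programmes gave mixed pictures. Of 26 NRF2 and glutathione genes, 18 were higher and 3 lower (median 1.78, or -0.09 with Sertoli scaling). G6pdx, the first enzyme of the pentose phosphate path, was at 11.8, 16.1, 13.8 and 14.6 CPM in ALL and 94.7, 51.7, 73.9 and 91.5 CPM in High-VCR (log2 fold change 2.47 ± 0.19, adjusted p = 5.48e-08), while Srxn1, sulfiredoxin, fell (log2 fold change -1.62 ± 0.24, adjusted p = 1.42e-05). Of 25 heat shock and chaperone genes, 9 were higher and 9 lower (median -0.25, or 0.03 scaled by library size alone). Hspb8, a small heat shock protein, was at 2.29, 1.52, 1.17 and 2.65 CPM in ALL and 43.2, 22.2, 25.9 and 42.6 CPM in High-VCR (log2 fold change 4.14 ± 0.35, adjusted p = 6.37e-08). Hspb1 (log2 fold change 2.08 ± 0.18, adjusted p = 7.38e-08) and the mitochondrial chaperonin Hspd1 (log2 fold change 2.14 ± 0.22, adjusted p = 2.23e-07) rose, and Hsf2, a heat shock factor of germ cells, fell (log2 fold change -1.43 ± 0.24, adjusted p = 5.6e-05). Of 20 genes of the integrated stress response, 10 were higher and 5 lower (median 0.68, or -1.19 with Sertoli scaling). Slc3a2, a subunit of amino acid transporters, was at 204, 213, 218 and 216 CPM in ALL and 1043, 592, 809.5 and 1061 CPM in High-VCR (log2 fold change 2.04 ± 0.21, adjusted p = 2.1e-07), and Asns, asparagine synthetase, fell (log2 fold change -1.18 ± 0.18, adjusted p = 1.53e-05).

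Of 21 hypoxia-induced genes, 13 were higher and 4 lower (median 1.20, or -0.66 with Sertoli scaling). Bnip3, a mitophagy receptor, rose (log2 fold change 1.88 ± 0.18, adjusted p = 1.27e-07), and Ldha, the lactate dehydrogenase of most tissues, was at 1224, 1228, 1207 and 1166 CPM in ALL and 305, 943, 467 and 407 CPM in High-VCR and fell (log2 fold change -1.19 ± 0.33, adjusted p = 0.00424). Of 18 genes induced by glucocorticoids and metallothioneins, 13 were higher and 2 lower (median 1.47, or -0.40 with Sertoli scaling). Ddit4 rose (log2 fold change 1.99 ± 0.17, adjusted p = 5.76e-08) and Per1, a clock gene, fell (log2 fold change -1.15 ± 0.15, adjusted p = 3.01e-06). Of 19 immediate early genes, 11 were higher and 6 lower (median 2.12). Klf6 was at 2.72, 3.64, 2.93 and 3.75 CPM in ALL and 29, 17.6, 26.9 and 28.4 CPM in High-VCR (log2 fold change 2.96 ± 0.25, adjusted p = 5.48e-08) and Junb at 6.2, 8.2, 6.35 and 7.06 CPM in ALL and 35.9, 26.3, 31.4 and 52.9 CPM in High-VCR (log2 fold change 2.40 ± 0.25, adjusted p = 2.79e-07). Klf4, a factor that round spermatids express strongly, was at 201, 196, 183 and 209 CPM in ALL and 19.9, 19.1, 37.3 and 20.2 CPM in High-VCR and fell (log2 fold change -3.03 ± 0.41, adjusted p = 5.03e-06).

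Innate immune genes rose. Of 42 interferon-stimulated genes, 38 were higher and 2 lower (median 2.48). Gbp2, a guanylate-binding protein of cell defence, was at 1.09, 1.32, 0.977 and 1.66 CPM in ALL and 12.8, 8.18, 12.2 and 17.6 CPM in High-VCR (log2 fold change 3.33 ± 0.30, adjusted p = 7.48e-08). Irf1, a factor of the interferon response, was at 0.762, 1.32, 1.56 and 1.44 CPM in ALL and 12.7, 6.75, 10.2 and 12.2 CPM in High-VCR (log2 fold change 3.03 ± 0.26, adjusted p = 6.98e-08). Bst2, tetherin, which holds budding viruses at the cell surface, was at 15.2, 14.4, 8.79 and 11.9 CPM in ALL and 117, 56.6, 78.5 and 99.4 CPM in High-VCR (log2 fold change 2.81 ± 0.27, adjusted p = 1.14e-07). Psmb8, a subunit of the immunoproteasome, rose (log2 fold change 3.02 ± 0.27, adjusted p = 8.15e-08). Cxcl10, a chemokine, had 0 counts in ALL and 69 over High-VCR, at least 13.9-fold higher against 3 counts over the group. Gbp5 was 1 of the 2 that fell. It was at 184, 187, 192 and 212 CPM in ALL and 36, 46, 55.3 and 34.8 CPM in High-VCR, already high in ALL, and went against the other guanylate-binding proteins of the list (log2 fold change -2.17 ± 0.29, adjusted p = 3.61e-06).

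The promoters of Gbp2 and Bst2 are shown because they carry the letters of the interferon-stimulated response element, searched on both strands as a pair of GAAA copies with any 2 bases between them. The element was in 17 of the 30 interferon-stimulated genes with a RefSeq window (56.7%), beside 3.64% of the 12787 tested genes with one and 3.44% of all 32851 windows. Gbp5, which fell, was among the 17. The 250 bases before each start follow, 5′ to 3′ in the direction of the gene, with the element in capitals (RefSeq, GRCm38.p6). Gbp2 is at chr3:142620413-142620662 on the plus strand and has the element on the opposite strand at positions -59 to -50. Bst2 is at chr8:71537473-71537722 on the minus strand and has a pair of overlapping copies from -130 to -115.
Gbp2: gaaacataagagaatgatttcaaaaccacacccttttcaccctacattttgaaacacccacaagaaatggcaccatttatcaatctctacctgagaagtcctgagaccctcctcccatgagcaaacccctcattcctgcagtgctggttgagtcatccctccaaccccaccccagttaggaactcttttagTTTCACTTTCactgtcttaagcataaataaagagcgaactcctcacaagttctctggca
Bst2: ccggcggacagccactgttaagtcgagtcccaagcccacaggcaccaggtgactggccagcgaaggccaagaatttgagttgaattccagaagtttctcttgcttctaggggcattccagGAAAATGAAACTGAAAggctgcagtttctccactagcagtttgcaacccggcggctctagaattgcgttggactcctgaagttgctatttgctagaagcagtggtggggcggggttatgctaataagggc
A match describes the letters in these windows and shows no binding.

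Antigen presentation, complement and inflammation rose alongside. Of 18 MHC class I and class II genes, 14 were higher and 2 lower (median 1.80, or -0.03 with Sertoli scaling), with 1 lower without High-VCR 2. B2m, the shared chain of class I, was at 47.9, 41.7, 39.5 and 40.1 CPM in ALL and 412, 201, 286 and 432 CPM in High-VCR (log2 fold change 2.98 ± 0.26, adjusted p = 6.66e-08), and H2-D1, a class I heavy chain, rose (log2 fold change 2.81 ± 0.22, adjusted p = 5.48e-08). H2-Ab1, a class II chain of antigen-presenting cells, was at 34.2, 26.2, 34.4 and 29.7 CPM in ALL and 15, 20.5, 12.2 and 12.7 CPM in High-VCR and fell (log2 fold change -1.04 ± 0.31, adjusted p = 0.00564). Of 21 complement genes, 17 were higher and 1 lower (median 2.71). C4b was at 127, 95.5, 95.6 and 124 CPM in ALL and 1291, 664, 445 and 801 CPM in High-VCR (log2 fold change 2.86 ± 0.32, adjusted p = 6.22e-07). C1qa, made by macrophages, was at 15.4, 18.4, 17.8 and 13.8 CPM in ALL and 153, 76.7, 104 and 127 CPM in High-VCR (log2 fold change 2.81 ± 0.23, adjusted p = 5.48e-08), and Serping1, the inhibitor of C1, rose (log2 fold change 2.71 ± 0.22, adjusted p = 5.48e-08). Cd55, which protects cells from complement, fell (log2 fold change -1.82 ± 0.37, adjusted p = 0.000321). Of 24 inflammatory and acute-phase genes, 17 were higher and 5 lower, and the median of 3.05 was the highest of the 48 lists. Lcn2, the iron-binding lipocalin of acute inflammation, was at 143, 149, 119 and 118 CPM in ALL and 2570, 1133, 1307 and 1952 CPM in High-VCR (log2 fold change 3.72 ± 0.41, adjusted p = 4.44e-07). Serpina3g was at 0.326, 0.304, 0.488 and 0.331 CPM in ALL and 19.1, 10.4, 7.89 and 8.6 CPM in High-VCR (log2 fold change 4.94 ± 0.48, adjusted p = 1.55e-07). Icam1 (log2 fold change 3.10 ± 0.27, adjusted p = 7.38e-08) and Nfkbia (log2 fold change 1.95 ± 0.15, adjusted p = 4.88e-08), both NF-kappaB targets, rose.

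Markers of blood-borne cells were examined beside these lists. Of 24 macrophage and monocyte genes, 21 were higher and 1 lower (median 2.74), and their summed level was 282 to 332 CPM in ALL and 695 to 1276 CPM in High-VCR. Csf1r, the receptor that macrophages need, was at 8.6, 12.2, 9.57 and 10.2 CPM in ALL and 106, 49.4, 70.7 and 94.1 CPM in High-VCR (log2 fold change 2.98 ± 0.25, adjusted p = 5.48e-08). Lyz2 rose (log2 fold change 2.86 ± 0.24, adjusted p = 5.48e-08), and so did Mrc1, the mannose receptor of resident macrophages (log2 fold change 1.88 ± 0.17, adjusted p = 1.02e-07). Itgam had 3 counts over ALL, all in ALL 3, and 400 over High-VCR, a ratio of 80.8 with an exact 95% interval of 27.5 to 394, or at least 59.3-fold without ALL 3. Such intervals and bounds cover counting error only. Aif1 was at 115.7, 110.5, 108 and 94.3 CPM in ALL and 34.4, 35.7, 55.1 and 32.5 CPM in High-VCR and fell (log2 fold change -1.44 ± 0.27, adjusted p = 0.000156). All 4 tested neutrophil genes were higher (median 2.18). Of 13 B lineage and leukocyte genes, 8 were higher and 2 lower (median 2.46), with a summed level of 35.1 to 46.8 CPM in ALL and 52.9 to 94.5 CPM in High-VCR. Mme was at 1.85, 2.23, 2.25 and 2.65 CPM in ALL and 20.1, 10.1, 16.3 and 16.3 CPM in High-VCR (log2 fold change 2.80 ± 0.23, adjusted p = 5.48e-08) and Cd53 at 1.31, 1.22, 1.47 and 1.32 CPM in ALL and 9.9, 5.19, 6.83 and 8.37 CPM in High-VCR (log2 fold change 2.50 ± 0.26, adjusted p = 3.26e-07). Cd72 had 0 counts in ALL, was at least 20.6-fold higher in High-VCR, and was at 0 in High-VCR 3. Cd37 fell (log2 fold change -1.04 ± 0.22, adjusted p = 0.000365). Of 8 erythroid genes, 4 were higher and 2 lower. Hbb-bs, a haemoglobin chain, was at 17.7, 27.5, 12.1 and 19.6 CPM in ALL and 187, 46, 102.5 and 198 CPM in High-VCR (log2 fold change 2.79 ± 0.47, adjusted p = 4.62e-05). The part of blood in the tissue in these immune results was not tested.

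Markers of adjoining tissue and of mast cells moved in both directions. Of 7 adipocyte genes, 3 were higher and 1 lower, with a summed level of 28.5 to 34.5 CPM in ALL and 14.9 to 25.6 CPM in High-VCR. Adipoq, adiponectin, was at 23.8, 28.2, 23.5 and 21 CPM in ALL and 3.19, 1.49, 6.77 and 3.18 CPM in High-VCR and fell (log2 fold change -2.72 ± 0.59, adjusted p = 0.000544). Of 4 epididymal genes tested, 2 were higher and 2 lower. Eppin, which Sertoli cells also make, rose (log2 fold change 1.90 ± 0.20, adjusted p = 2.49e-07) and Cst8, which spermatids also express, fell (log2 fold change -1.09 ± 0.23, adjusted p = 0.000439). Of 2 mast cell genes tested, 1 was higher and 1 lower. The summed level of the mast cell list was 48.3 to 57.3 CPM in ALL and 82.2 to 136 CPM in High-VCR.

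Transcripts of the mitochondrial genome took a larger share of High-VCR libraries. Their share of counts was 2.11, 1.97, 1.93 and 1.78% in ALL and 9.08, 4.69, 7.21 and 8.29% in High-VCR, without overlap. The means were 1.95 ± 0.136% and 7.32 ± 1.91% (SD, n = 4), and the exact two-sided permutation p was 0.0286, the smallest that 4 against 4 allows. In both ranges of library numbers in the labels (up to 33 and above it), which hold 2 libraries of each group, the High-VCR shares were above those of ALL. All 13 mitochondrially encoded genes tested were higher (median 1.56, or -0.32 with Sertoli scaling). mt-Co1, a cytochrome oxidase subunit and the most abundant transcript named here, was at 8786, 8456, 8523 and 7687 CPM in ALL and 30010, 18120, 25110 and 28450 CPM in High-VCR (log2 fold change 1.60 ± 0.27, adjusted p = 4.02e-05). mt-Nd1 (log2 fold change 1.92 ± 0.30, adjusted p = 2.21e-05) and mt-Co3 (log2 fold change 1.67 ± 0.25, adjusted p = 1.68e-05) rose, and mt-Co1 and mt-Co3 were at -0.26 and -0.19 with Sertoli scaling.

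The nuclear partners of these genes did not follow as a group. Of 28 nuclear respiratory chain genes, 12 were higher and 6 lower, and their median of 0.17 was close to that of all genes (-0.01 with DESeq2 size factors and -1.64 with Sertoli scaling). Of 46 cytosolic ribosomal proteins, 24 were higher and 4 lower (median 0.35, or -1.48 with Sertoli scaling). Rps3 was at 107, 129, 126 and 111 CPM in ALL and 299, 226, 228 and 288 CPM in High-VCR (log2 fold change 1.14 ± 0.15, adjusted p = 3.97e-06), or -0.69 with Sertoli scaling. Of 26 proteasome subunits, 16 were higher and 4 lower (median 0.58, or -1.24 with Sertoli scaling). Psmb10, an immunoproteasome subunit, rose (log2 fold change 2.50 ± 0.22, adjusted p = 6.66e-08), while Psmc3, a base subunit, was at 1125, 1120, 1131 and 1081 CPM in ALL and 304, 752, 426 and 360.4 CPM in High-VCR and fell (log2 fold change -1.27 ± 0.29, adjusted p = 0.00079). Of 27 glycolysis genes, 9 were higher and 13 lower (median -0.62), a list that mixes sperm-type and somatic enzymes. Pfkl (log2 fold change 2.19 ± 0.19, adjusted p = 6.91e-08), Pgam1 (log2 fold change 2.09 ± 0.19, adjusted p = 8.17e-08) and Pkm (log2 fold change 1.73 ± 0.19, adjusted p = 4.05e-07) rose, all of them enzymes of somatic tissues, and Pkm was at -0.14 with Sertoli scaling. Ldha, the lactate dehydrogenase of most tissues, fell, as given above.

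**Figure D4:**
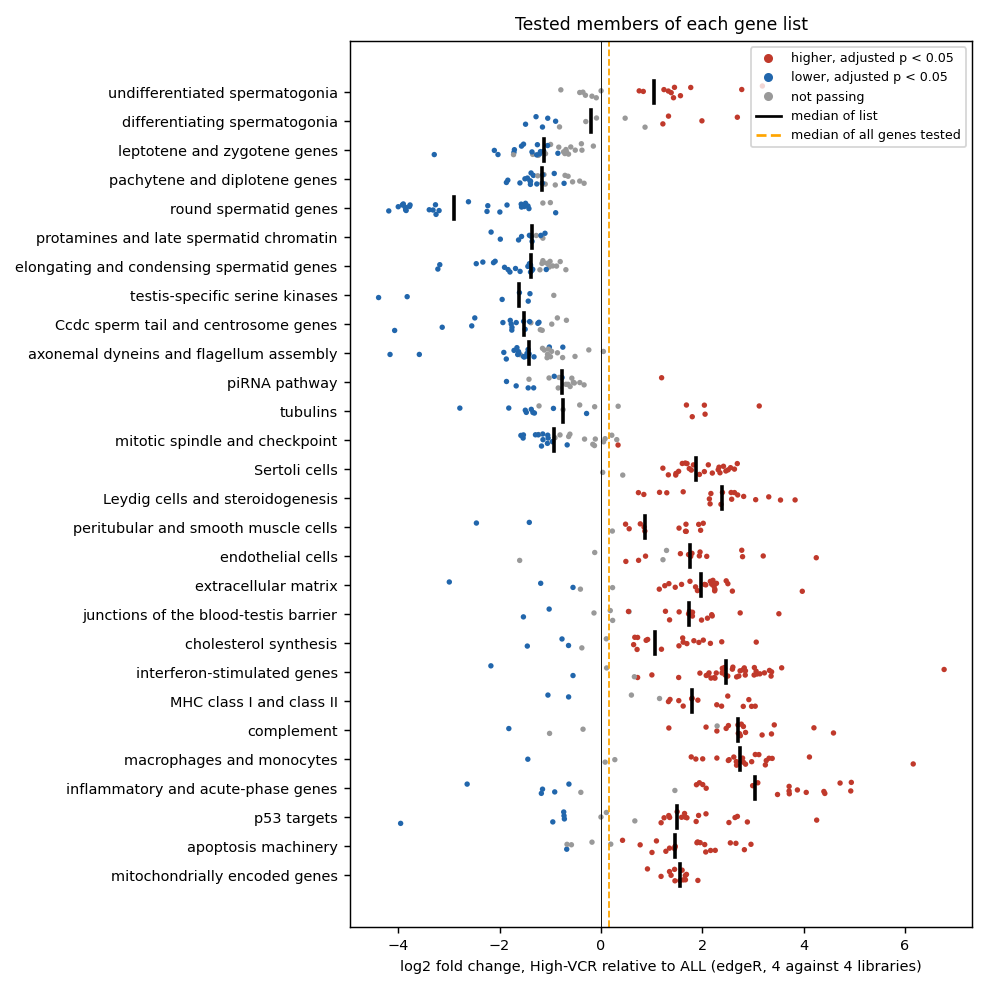
Each dot is 1 tested member of 1 of 28 gene lists, placed by its log2 fold change of High-VCR relative to ALL and coloured by its call, with a black bar at the median of the list and a dashed line at the median of all genes, 0.16. Germ cell lists from meiosis on lie to the left, deepest for round spermatid genes at -2.90, and somatic and immune lists lie to the right, up to 3.05 for inflammatory genes.

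The largest single falls included genes of spermatids. Pacs2, a sorting protein, was at 361, 318, 299.5 and 332 CPM in ALL and 0, 10.6, 5.72 and 0 CPM in High-VCR (log2 fold change -6.33 ± 1.31, adjusted p = 0.000381). Sox5, a factor of spermatids, was at 159, 154, 142 and 128 CPM in ALL and 11.7, 0, 12 and 4.8 CPM in High-VCR (log2 fold change -4.35 ± 0.94, adjusted p = 0.000535). Zan, zonadhesin of the acrosome, was at 71.2, 75.8, 80.1 and 96.2 CPM in ALL and 2.58, 4.48, 7.36 and 0.893 CPM in High-VCR (log2 fold change -4.41 ± 0.73, adjusted p = 4.46e-05). Asb15 (log2 fold change -4.62 ± 0.75, adjusted p = 3.48e-05), Zscan10 (log2 fold change -5.12 ± 0.89, adjusted p = 7.05e-05) and Nutm2 (log2 fold change -4.52 ± 0.68, adjusted p = 1.48e-05) also fell. Umodl1 and Myt1 had 218 and 229 counts over ALL and 0 over High-VCR, at least 120-fold and 126-fold lower against 3 counts over the group. Dpp6 had 503 counts over ALL and 1 over High-VCR, a ratio of 830 with an exact 95% interval of 148 to 32800, yet ALL 1 was itself at 0.109 CPM. Zeros in this table need care: of 9374 genes that averaged 100 counts or more in the groups given no drug, 20 were at 0 in some library of those groups. Nckap5 was the mirror image, with 0 counts in ALL and 1315 over High-VCR, at least 266-fold higher.

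Other large rises started from levels near 0. Wnt4, a signal of somatic gonad cells, was at 1.2, 0.101, 0.781 and 0.11 CPM in ALL and 25.4, 12.9, 15.4 and 30.1 CPM in High-VCR (log2 fold change 5.24 ± 0.54, adjusted p = 2.65e-07). Igfbp3, which binds insulin-like growth factors, was at 0.435, 0.405, 0.586 and 0.11 CPM in ALL and 15.7, 10.8, 19.3 and 21.3 CPM in High-VCR (log2 fold change 5.40 ± 0.32, adjusted p = 3.19e-08). Mylk2 (log2 fold change 5.44 ± 0.58, adjusted p = 3.39e-07) and Clca3a2 (log2 fold change 5.33 ± 0.57, adjusted p = 3.95e-07) rose in all 4 libraries. Klk1b22, a kallikrein of a family of near-identical copies, was at 0.326, 0.101, 0.0977 and 0.221 CPM in ALL and 17.1, 1.49, 2.76 and 7.26 CPM in High-VCR, with a spread among High-VCR libraries of over 10-fold (log2 fold change 5.21 ± 0.85, adjusted p = 3.5e-05). Lrch1 was at 0, 0, 0.586 and 0 CPM in ALL and 29.1, 11.8, 14.4 and 25.9 CPM in High-VCR, and Clec4n, a lectin of myeloid cells, at 0.653, 0, 0 and 0 CPM in ALL and 11.2, 5.38, 5.78 and 8.43 CPM in High-VCR. Without ALL 3, Lrch1 was at 0 in ALL and at least 192-fold higher in High-VCR, and without ALL 1, Clec4n was at least 74.8-fold higher, both against 3 counts over the remaining libraries. Ahsg had 3 counts over ALL, all in ALL 4, and 432 over High-VCR, a ratio of 87.3 with an exact 95% interval of 29.7 to 425, or at least 66.7-fold without ALL 4.

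In absolute terms the largest losses were in abundant transcripts. Akap12 was at 5416, 5306, 5505 and 5694 CPM in ALL and 1506, 2877, 2905 and 1818 CPM in High-VCR (log2 fold change -1.27 ± 0.41, adjusted p = 0.00992). Ubb, a polyubiquitin gene, was at 6485, 5949, 5976 and 5836 CPM in ALL and 2795, 4490, 3411 and 3320 CPM in High-VCR (log2 fold change -0.79 ± 0.20, adjusted p = 0.00228). Pabpc1, a poly(A)-binding protein, was at 3597, 3410, 3704 and 3693 CPM in ALL and 772, 2614, 1212 and 988 CPM in High-VCR (log2 fold change -1.37 ± 0.40, adjusted p = 0.0056). Atp8b3, a lipid flippase of the acrosome, was at 4724, 4487, 4999 and 5133 CPM in ALL and 930.1, 2822, 1767 and 1061 CPM in High-VCR (log2 fold change -1.55 ± 0.59, adjusted p = 0.0246) and was not called without High-VCR 1 or 4. Of genes above 50 CPM, Hook2 and Ttll5 were among the most variable within High-VCR. Hook2, a microtubule linker, was at 214, 208, 221 and 232 CPM in ALL and 0, 76.6, 31 and 9.77 CPM in High-VCR (log2 fold change -2.90 ± 1.25, adjusted p = 0.0446), and it was called without 1 library only when that library was High-VCR 2. Ttll5, a tubulin glutamylase of sperm tails, was at 261, 225, 254 and 305 CPM in ALL and 17.8, 227, 78.2 and 20.5 CPM in High-VCR, with High-VCR 2 inside the range of ALL, and did not pass (log2 fold change -1.61 ± 0.94, adjusted p = 0.132). Without High-VCR 2 its log2 fold change was -2.75, with an adjusted p of 0.0204.

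High-VCR was also set against Low-VCR, which tests directly whether the groups given the drug differ, since both share ALL as their control. Of the 16534 genes, 1292 were called (7.81%), 517 higher in High-VCR (3.13%) and 775 lower (4.69%). That count was not stable. It was 0 without Low-VCR 1, Low-VCR 3, High-VCR 1 or High-VCR 4, 3218 without High-VCR 2, 0 with limma voom and 0 in a fit on these 8 libraries alone. The genes below are named with that limit. Round spermatid genes held 13 of the calls, all lower in High-VCR (median -1.67 relative to Low-VCR). Low-VCR against ALL called 8527 genes (51.6%). Relative to that shared control, the median of the round spermatid list was -2.90 in High-VCR, with 26 members called, and -1.19 in Low-VCR, with 9. Catsper3 differed by -2.76 ± 0.56 between High-VCR and Low-VCR (adjusted p = 0.0215), Tmem95 by -2.69 ± 0.45 and Rec8 by -2.14 ± 0.48. Tssk4 differed by -2.62 ± 0.67 (adjusted p = 0.029). Relative to ALL its log2 fold change was -3.82 ± 0.70 in High-VCR and -1.20 in Low-VCR.

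The other lists held at most 4 calls each between these groups. Protamines and late spermatid chromatin had 0 of 12 called (median -0.42), elongating spermatid genes 1 of 31 lower (median -0.49) and pachytene genes 1 of 25 lower (median -0.38). Niche factors had 4 of 19 higher (median 0.61), complement 3 of 21 higher (median 0.55) and extracellular matrix 4 of 26 higher (median 0.46). Leydig genes had 4 of 19 called higher in High-VCR (median 0.50), with Hsd3b1 at 1.18 ± 0.27 and Insl3 at 1.15 ± 0.32. The Sertoli median was 0.31 with 1 of 26 called higher, and the interferon median 0.19 with 1 higher and 1 lower. Among the genes with the smallest adjusted p, Pgbd5 (1.65 ± 0.25), Txndc5 (1.25 ± 0.20) and Chdh (1.17 ± 0.19) were higher in High-VCR and Pin1rt1 (-2.71 ± 0.46) was lower. Ros1, a receptor tyrosine kinase, was also called lower than in Low-VCR, by a fitted value that gives no size. Its ratio can be given against ALL and not Low-VCR: it had 68 counts over ALL and 1 over High-VCR. That is a ratio of 112 with an exact 95% interval of 19.5 to 4490.

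A second question was whether the drug response with xenograft and high infiltration differed from that of VCR against NC. The interaction called 1 gene (0.00605%) by edgeR's quasi-likelihood test, with 752 genes at an unadjusted p under 0.05, 5 calls by DESeq2 and 0 by limma voom. The gene was Btbd35f15, of a family of near-identical copies. It was at 6.53, 1.52, 3.91 and 6.18 CPM in ALL and 1.42, 1.88, 2.04 and 2.4 CPM in High-VCR, and its log2 fold change was -1.22 ± 0.39 in High-VCR relative to ALL. It had 249 counts over NC and 1 over VCR, a ratio of 331 with an exact 95% interval of 58.9 to 13100, so a fitted fold change gives no size there. Round spermatid genes had medians of -2.90 and -3.56 in these comparisons, Sertoli genes 1.89 and 1.91, and interferon-stimulated genes 2.48 and 2.81. Few calls do not show that the responses are the same.

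**Figure D5:**
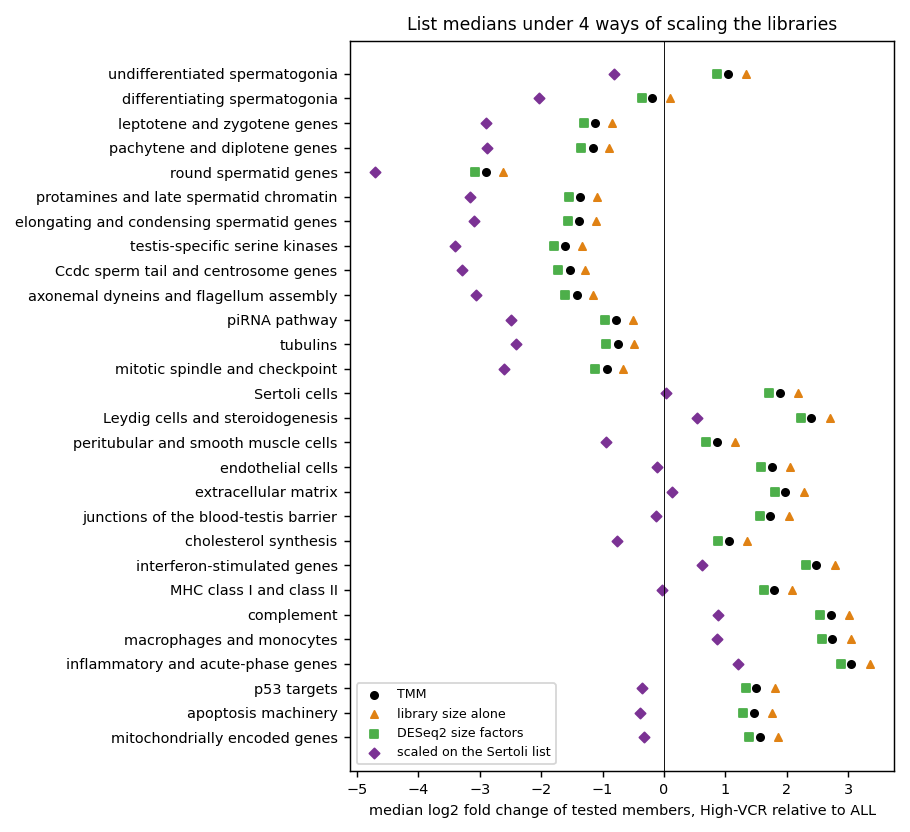
Median log2 fold change of the tested members of 28 lists, High-VCR relative to ALL, with libraries scaled by TMM, by library size alone, by DESeq2 size factors, or so that the Sertoli list is level. The germ cell lists from meiosis on stay below 0 under all 4 ways, Leydig, complement, macrophage, interferon and inflammatory lists stay above 0, and lists such as peritubular cells or p53 targets change sign with the Sertoli scaling.

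How far a list rose depends on the scale set between the libraries. TMM takes the bulk of genes as level, and the median of all genes moved from 0.16 to 0.45 with library size alone, to -0.01 with DESeq2 size factors and to -1.65 with scaling on Sertoli genes. Under Sertoli scaling 13386 genes were called, of which 8.02% were higher, in place of 58.2%. Counts by other routes were closer, at 12550 by DESeq2 (50.6% of the called higher) and 11943 in a fit on the 8 libraries alone (48.8% higher).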

How the data were processed

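Poly(A)-selected RNA of 20 mouse testis samples in 5 groups of 4 was analysed from the deposited table, which holds whole-number counts per gene symbol for 22066 symbols, not normalised. The tools listed, per the submitters' processing notes, are STAR 2.7.10b, Trimmomatic 0.39, DESeq2 1.36.0, Subread 2.0.3 and its featureCounts, and the build is GRCm39 (mm39). The annotation, the strand setting and any removal of human reads are not given in the sources used here. Per the labels' protocols, libraries were directional and oligo-dT selected.

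Counts were fitted in R 4.3.3 with edgeR 4.0.16 (glmQLFit, robust, TMM, filterByExpr by group with a minimum count of 10; glmQLFTest) as 5 group means over all 20 libraries, with 15 residual degrees of freedom. A standard error is the absolute log2 fold change over the root of F. Alternatives used DESeq2 1.42.0 and limma 3.58.1. Single values were compared by exact permutation over samples, with the smallest possible p of 0.0286. The script was tested on simulated data. Total counts of 10.3 to 16.4 M in the 8 libraries make 3 counts 0.183 to 0.291 CPM per library.

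The comparison, the 48 gene lists (1020 of 1032 genes in the table) and the rule for named genes were chosen with earlier results of these data known. The rule took Tssk4 and Ccdc159, the 10 largest rises and falls without overlap among genes that average 5 CPM or more in the higher group, and the genes with the largest gains and losses in CPM, the 5 most variable High-VCR genes above 50 CPM and the leading genes of the other contrasts. From each list it took the called members with the smallest adjusted p or largest change, the most abundant member and 1 that moved against the majority. Some were left out for length or are not reported here. Gene promoters are from RefSeq (GRCm38.p6), matched by symbol for 12787 of the 16534 genes tested, and are used only for sequence. Same-numbered ALL and High-VCR samples did not deviate together, so the numbers were not used as pairs.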

Additional observations from a re-analysis of the deposited data

Results flagged for a closer look

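In ALL and in High-VCR, 460 groups of 4 values were examined for 1 library far from the other 3. Of these, 31 stood out. Chance alone marks about 1 in 20 groups where values are independent and normally spread. That rate does not cover genes at 0 in 3 libraries, which stand out whatever the other library holds. Nor does it cover list scores, which share libraries. High-VCR 2 was the low library for the list scores of Sertoli cells (6.437 mean log2 CPM), endothelial cells (3.076), junctions of the blood-testis barrier (6.129), B lineage genes (1.406), adipocytes (0.5731) and mitochondrially encoded genes (10.58). It was also low for Dmrt1 (47.36 CPM), Casp6 (38.02 CPM) and Klf6 (17.58 CPM), and high for Bcl2l1 (31.34 CPM) and Ros1 (0.06488 CPM, the others at 0). High-VCR 3 was the high library for Chd5 (375 CPM), Spag4 (122.4 CPM), Tssk1 (178.6 CPM), Klf4 (37.27 CPM) and Dpp6 (0.06572 CPM, the others at 0), and was at 0 CPM for Cd72. High-VCR 4 was low for Rec8 (7.815 CPM).

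In ALL, replicate 1 was high for the kinase list score (8.247) and Clec4n (0.6528 CPM, the others at 0), and low for the piRNA score (6.559), Dpp6 (0.1088 CPM) and Piwil4 (0 CPM). ALL 2 was high for Lyz2 (27.84 CPM). ALL 3 was high for Lrch1 (0.5859 CPM) and Itgam (0.293 CPM), each with the others at 0, and low for Kit (11.03 CPM), Ebp (13.87 CPM) and Per1 (153.7 CPM). ALL 4 was high for Ahsg (0.3311 CPM, the others at 0) and at 0 CPM for Robo4.

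Of 180 genes described, 46 passed between High-VCR and Low-VCR, beside 7.81% of all genes tested. That contrast tests whether their responses relative to ALL differ. Some of the 180 were named because they led this contrast. Others were named for their change in High-VCR against ALL, which uses the same High-VCR libraries. Thus 46 is in part set by the choice of genes, and 7.81% is not a like background for it. None passed by limma voom or on the 8 libraries alone. Nothing was called without Low-VCR 1, Low-VCR 3, High-VCR 1 or High-VCR 4. The values are log2 fold changes of High-VCR relative to Low-VCR. Lower in High-VCR among genes of germ cells were Tssk4 (-2.623), Tssk5 (-3.17), Catsper1 (-1.906), Catsper3 (-2.761), Lyzl4 (-1.989), Tmem95 (-2.691), Izumo1 (-2.3), Tekt2 (-2.032), Dnah3 (-2.603), Cfap58 (-2.328), Ccdc182 (-2.625), Ccdc116 (-1.951), Rec8 (-2.139), Cdc25c (-1.071) and Zan (-2.931). Lower as well were Pacs2 (-4.56), Sox5 (-3.04), Asb15 (-3.118), Zscan10 (-3.85), Nutm2 (-3.023), Clip1 (-1.576), Klf4 (-1.868), Gbp5 (-1.429), Fdft1 (-0.6637), Asns (-0.674) and Pin1rt1 (-2.707). Umodl1 (-7.943), Myt1 (-8.588), Dpp6 (-7.898) and Ros1 (-4.864) were at 0 or 1 count over High-VCR, so their fitted values give no size.

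Higher in High-VCR were Kit (1.278), Nr5a1 (0.6627), Hsd3b1 (1.181), Insl3 (1.147), Kdr (0.9792), Pdgfra (0.9616), Wnt6 (0.794), Serping1 (0.7254), C4b (1.335), Mrc1 (0.5924), Mme (0.7536), Slc3a2 (0.7153), Mapre1 (0.3985), Chdh (1.171), Txndc5 (1.246) and Pgbd5 (1.647). For Btbd35f15 the change from ALL to High-VCR and the change from NC to VCR differed by 6.462 on the log2 scale, a fitted value that gives no size because VCR held 1 count in all.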

How the results depend on the processing

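The count of 12054 genes between High-VCR and ALL was between 10793 and 12875 when 1 replicate was left out, 5080 within library numbers up to 33 and 11930 within higher numbers (2 against 2 each). With the replicate block, on the 8 libraries, it was 11593 (47.3% of the called higher); the numbers paired no samples, with correlations of -0.0318 to 0.0293. The count of 1292 between High-VCR and Low-VCR was 2126 by DESeq2, 0 by limma voom, 0 on the 8 libraries alone (chosen after seeing the data), 525 with the replicate block, and 0 to 3218 without 1 replicate. The interaction called 5 genes by DESeq2, 0 by limma voom and 1 to 2 without 1 replicate. The difference in mitochondrial share, 5.37 percentage points, was 4.78 to 6.25 without 1 replicate, with an exact p of 0.0571 without any 1 ALL library. The permutation difference of Ccdc159 was -1.84 without High-VCR 3 and -1.16 to -1.84 over replicates. Of the genes described, 34 of the calls were lost within library numbers up to 33, and the cause was not tested.

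Scaling on Sertoli genes turned the sign of Piwil4 (-0.67), Etv5 (-0.52), Foxo1 (-0.47), Uchl1 (-0.42), Dmrt1 (-0.61), Tuba1a (-0.061), Mapre1 (-0.71), Abcc1 (-0.24), Abcb1a (-0.14), Acta2 (-0.17), Sesn2 (-0.19), Pkm (-0.14), mt-Co1 (-0.26), mt-Co3 (-0.19), Rps3 (-0.69) and Chdh (-0.83). It turned the list medians of undifferentiated spermatogonia (-0.81), peritubular (-0.94), endothelial (-0.11), junction (-0.13), retinoic acid (-0.98), cholesterol (-0.77), efflux (-0.84), p53 (-0.36), apoptosis (-0.39), MHC (-0.033), erythroid (-0.38), adipocyte (-1.20), epididymis (-1.54), integrated stress (-1.19), glucocorticoid (-0.40), hypoxia (-0.66), NRF2 (-0.086), mitochondrial (-0.32), respiratory chain (-1.64), ribosomal (-1.48) and proteasome genes (-1.24). A further 20 of the genes described kept their sign with Sertoli scaling but were no longer called. They were Ccnd2, Tubb5, Tubb3, Tubb2b, Myl9, Wnt6, Ebp, Nfkbia, Mrc1, Eppin, Casp6, Slc3a2, Ddit4, Bnip3, Hspb1, Hspd1, Pgam1, mt-Nd1, Txndc5 and Pgbd5. Library size alone turned the list medians of differentiating spermatogonia (0.10) and heat shock genes (0.033). The respiratory chain median was -0.013 with DESeq2 size factors or DESeq2, -0.077 on the 8 libraries alone and -0.091 with the replicate block. With no gene filter the adipocyte, epididymis and mast cell medians were -0.55, -0.41 and 1.09, and the epididymis median was -1.34 on the 8 libraries, -1.35 with the replicate block and -1.36 within library numbers up to 33. Depth limits genes at 0 in 1 group to bounds.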
